A study of Rattus norvegicus with 12 samples.

Results

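The genes described here encode the GIT and beta-PIX scaffold and the mTOR complexes with their direct regulators, chosen by name: Git1, Git2 and Arhgef7, then Mtor, Rptor, Rictor and Mlst8, then Rheb, Tsc1 and Tsc2. Of these 10 genes, 9 were found among the 10730 genes of the deposited expression table, and Rictor is not analysed here. All 9 passed the filter on low values, which asked for 3 or more of the 12 libraries to reach 1 FPKM (fragments normalized for transcript length and library size).

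Messenger RNA was sequenced from hippocampal neurons of male and female CD (Sprague Dawley) rat embryos taken late in gestation (E18.5) and kept as neuron-enriched cultures. Every culture was infected on day 1 in vitro with a lentivirus made from the pLKO.1 vector in HEK293T cells, a human kidney-derived packaging line, and every culture was given 1 µM tetrodotoxin (TTX), which blocks sodium channels and so action potentials, on day 5 for 48 h. There were 4 groups of 3 libraries: Grin3a knockdown harvested 6 h after TTX withdrawal (KD_TTXwd), empty-vector control harvested 6 h after withdrawal (Ctrl_TTXwd), Grin3a knockdown still in TTX (KD_TTX) and empty-vector control still in TTX (Ctrl_TTX), all collected on day 7. The knockdown rests on 1 hairpin, and the control virus carried no hairpin. The labels do not say whether the 3 libraries of a group came from separate cultures, so each p-value measures the spread between these libraries, which may be technical.

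Grin3a encodes GluN3A, an NMDA receptor subunit of the juvenile brain that is known to bind GIT1. GIT proteins pair with beta-PIX, the product of Arhgef7, into a scaffold that brings Rac activators and PAK kinases to synapses and focal adhesions. mTORC1 is the kinase complex of mTOR, raptor and mLST8 that drives protein synthesis when the small GTPase Rheb is loaded with GTP, and the TSC1 and TSC2 proteins form the complex that switches Rheb off. In neurons these proteins link receptor and nutrient signals to local translation, and GluN3A has been described as limiting the assembly of GIT1 with mTORC1, which is a step of protein binding that transcript levels do not measure.

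The hairpin, given as printed in the labels, aims at a 21-base stretch of Grin3a, shown because it sets the knockdown groups apart:
Grin3a hairpin target: gctccatgacaagtggtacaa

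The promoters of the members that the results turn on follow, each as the 250 bases before the RefSeq transcription start in rat build GRCr8, read 5′ to 3′ on the strand of the gene. They are Git1 (chr10:62840144-62840393, plus strand), Arhgef7 (chr16:84484389-84484638, minus strand) and Mlst8 (chr10:14008679-14008928, minus strand), shown because Git1 and Arhgef7 were called lower after withdrawal and Mlst8 was not called, with CG dinucleotides in capitals:
Git1: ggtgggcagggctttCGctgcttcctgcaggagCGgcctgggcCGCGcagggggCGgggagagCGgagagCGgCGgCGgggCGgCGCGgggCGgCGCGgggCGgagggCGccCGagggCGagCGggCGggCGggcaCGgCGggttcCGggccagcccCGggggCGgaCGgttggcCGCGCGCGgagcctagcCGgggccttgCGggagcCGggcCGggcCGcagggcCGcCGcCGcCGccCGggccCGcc
Arhgef7: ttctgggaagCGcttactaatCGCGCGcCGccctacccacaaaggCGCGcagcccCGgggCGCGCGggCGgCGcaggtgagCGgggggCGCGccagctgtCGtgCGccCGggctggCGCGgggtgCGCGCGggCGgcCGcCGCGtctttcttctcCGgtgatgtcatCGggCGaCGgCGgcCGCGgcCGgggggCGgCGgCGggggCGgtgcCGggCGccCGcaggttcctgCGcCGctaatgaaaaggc
Mlst8: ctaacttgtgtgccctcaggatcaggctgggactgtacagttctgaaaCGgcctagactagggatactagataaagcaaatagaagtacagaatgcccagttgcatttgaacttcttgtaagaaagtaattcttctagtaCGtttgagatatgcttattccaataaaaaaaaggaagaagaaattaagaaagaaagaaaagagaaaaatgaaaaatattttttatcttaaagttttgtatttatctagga
The Git1 promoter held 43 CG dinucleotides and was 86.4% G or C, more than 99.92% of the 33469 rat promoters of the same length. The Arhgef7 promoter held 45 and was 78.0% G or C, more than 98.18% of promoters, whereas the Mlst8 promoter held 2 and was 32.8% G or C, more than 3.44% of promoters. The median promoter was 51.2% G or C with 5 CG dinucleotides. Other members without a call were above this median. Rheb was 68.0% G or C with 34 CG dinucleotides, Tsc2 64.0% with 25 and Git2 59.6% with 15. Mtor was 56.8% with 14 and Tsc1 53.6% with 15. A link between promoter content and the response to withdrawal was not tested.

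Motifs linked to activity-dependent transcription were searched on both strands of the 9 member promoters that RefSeq supplied, Rictor included and Rptor not. The full cAMP response element TGACGTCA was in 0 of the 9 and in 1.59% of all promoters, and the EGR motif GCGTGGGCG was in 0 of the 9 and in 0.478%. The shorter TGACG, which is part of the full element, was found in Rheb and Tsc1, against 18.2% of all promoters. The E-box CACGTG was found in Rheb and in 5.59% of all promoters. The Rheb promoter (chr4:11013133-11013382, plus strand, GRCr8) is shown because it held both, with the TGACG at position -237 from the start site and the CACGTG at position -86 in capitals:
Rheb: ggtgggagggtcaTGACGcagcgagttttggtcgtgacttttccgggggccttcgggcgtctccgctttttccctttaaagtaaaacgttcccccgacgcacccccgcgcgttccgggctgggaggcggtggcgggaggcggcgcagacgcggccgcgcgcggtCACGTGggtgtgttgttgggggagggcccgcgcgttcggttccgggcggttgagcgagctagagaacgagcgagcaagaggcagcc

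In the genome build of the deposited table, rn5, Git1 lies at chr10:62352882-62362201 on the minus strand (on the plus strand in GRCr8), Git2 at chr12:49383688-49424284 on the plus strand and Arhgef7 at chr16:82479276-82557593 on the minus strand. Mtor lies at chr5:168920418-169030568 (plus), Rptor at chr10:108353696-108658916 (plus), Mlst8 at chr10:13656235-13661987 (minus), Rheb at chr4:6843896-6889004 (plus), Tsc1 at chr3:12588005-12615637 (plus) and Tsc2 at chr10:13732198-13813550 (minus). Each interval is the whole gene locus with its exons and introns. Of the 9 genes, 4 are on chromosome 10, where Mlst8 and Tsc2 are 70211 bases apart. The Tsc2 locus overlaps that of Pkd1 on the other strand, and since the sources do not say whether strand was used in counting, Tsc2 values may include reads of Pkd1.

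The knockdown was checked on its target. After withdrawal, Grin3a measured 5.22, 3.32 and 2.502 FPKM in the knockdown and 13.8, 19.8 and 4.88 FPKM in the control. In TTX it measured 9.30, 6.01 and 4.77 FPKM in the knockdown and 18.6, 18.2 and 23.0 FPKM in the control. The library labelled Ctrl_TTXwd replicate 3 was thus no higher in Grin3a than some knockdown libraries. Grin3a had a limma adjusted p of 0.301 after withdrawal and 0.936 in TTX, while the authors' deposited table gives log2 fold changes of -1.80 and -1.58, each at q = 0.00102.

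Cell type markers also moved between libraries. The summed level of 7 pan-neuronal markers, among them Tubb3, Map2 and Rbfox3, was 724 to 1046 FPKM in KD_TTXwd, 433 to 1376 in Ctrl_TTXwd, 1397 to 1616 in KD_TTX and 1963 to 2720 in Ctrl_TTX. The sum of 8 microglial markers was 35.4 to 453 FPKM in KD_TTXwd, 85.7 to 1517 in Ctrl_TTXwd, 136 to 458 in KD_TTX and 155 to 506 in Ctrl_TTX, and that of 7 astrocyte markers ran from 650.3 to 3202 FPKM over the 12 libraries. Ctrl_TTXwd replicate 3 held the lowest neuronal sum and the highest microglial sum. None of these markers was at 0 in any library, and all 15 neuronal and microglial markers had a value in the table. The summed FPKM of a library ran from 428070 to 517703, and the number of reads behind a value is unknown.

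All 9 members were expressed, over a range of levels. Averaged over 12 libraries, Rheb was the highest at 144 FPKM, above 94.6% of the genes in the table, followed by Arhgef7 at 105 and Git1 at 59.2 FPKM. Git2 averaged 27.8, Tsc2 23.8, Tsc1 22.6 and Mtor 19.4 FPKM, near the middle of the table, and Rptor at 14.4 and Mlst8 at 11.3 FPKM were the lowest. Between the lowest and the highest library, Arhgef7 differed 3.52-fold and Git1 3.28-fold, against 1.42-fold for Rptor, 1.63-fold for Rheb and 1.64-fold for Mtor.

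**Figure D1:**
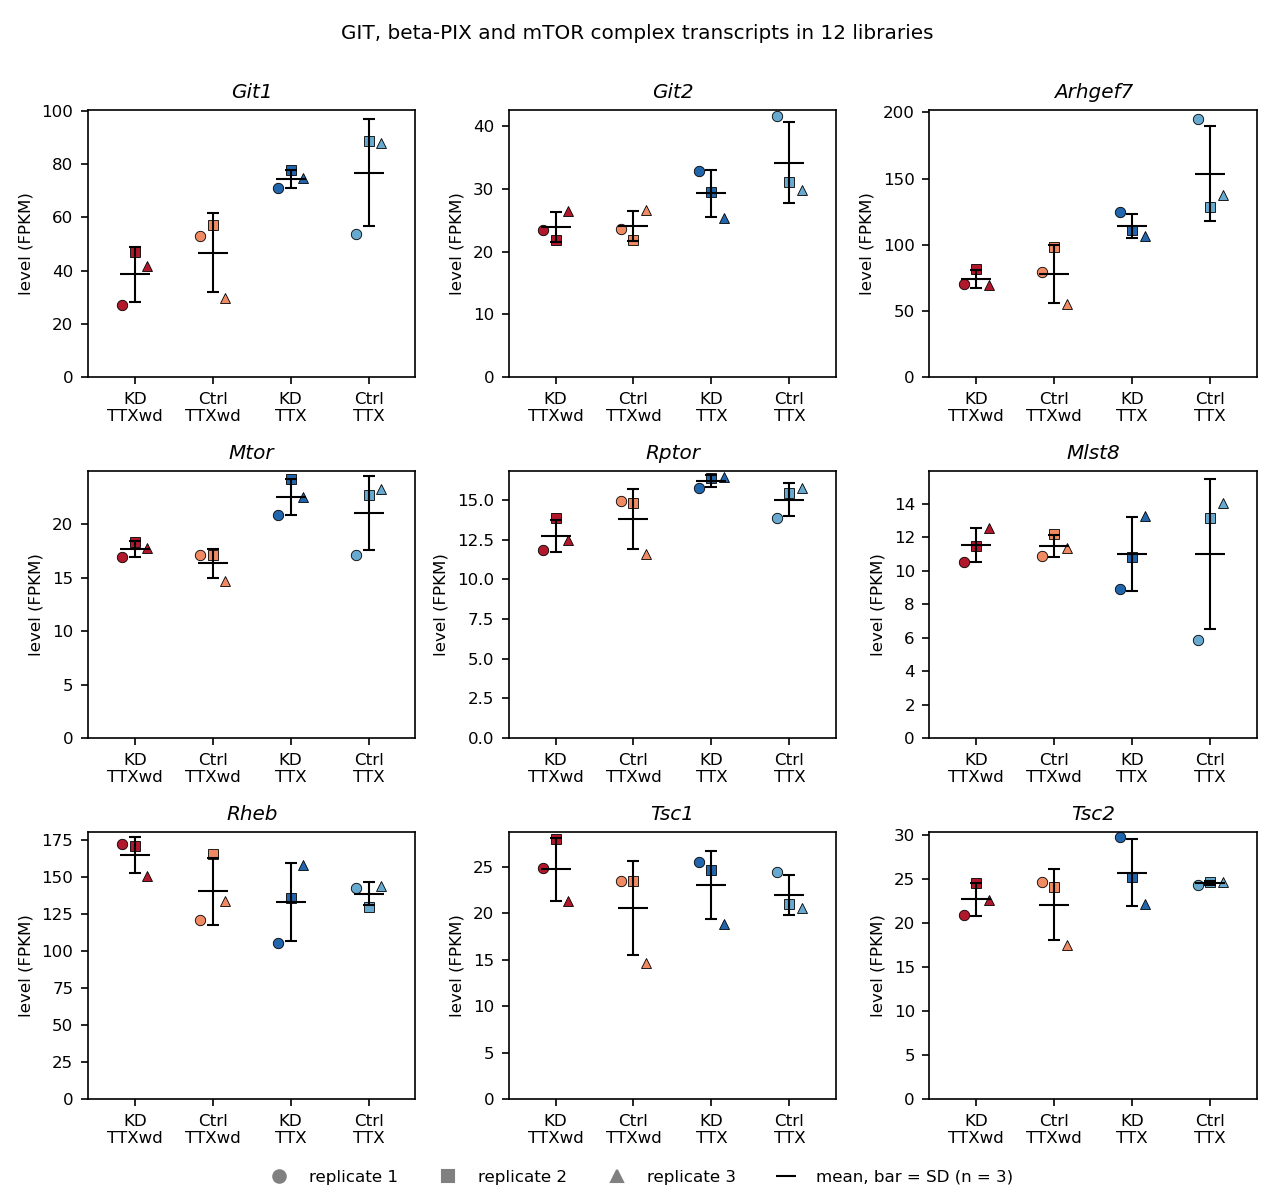
Level of each of the 9 members in FPKM (vertical axes, from 0) in the 4 groups (horizontal axes), with points for libraries, shaped by replicate number, and the mean with its SD (n = 3). Arhgef7 libraries after withdrawal lie below those in TTX in knockdown and in control neurons, and Git1 libraries do so in knockdown neurons and overlap in control neurons.

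Knockdown of Grin3a left the members without a called difference in either condition. In TTX, limma called 0 of 9 members higher and 0 lower at an adjusted p below 0.05, and 0% of 10689 genes were called in either direction; 0 members and 412 genes had an unadjusted p below 0.05. After withdrawal it again called 0 of 9, with 0% of genes called higher and 0.00936% called lower (1 gene); 0 members and 1276 genes had an unadjusted p below 0.05. The log2 differences of the 9 members lay between -0.40 and 0.10 in TTX (limma adjusted p 0.936 to 1.00) and between -0.25 and 0.28 after withdrawal (limma adjusted p 0.584 to 0.998). Their 95% intervals reached from -0.88 to 0.65 in TTX and from -0.88 to 0.72 after withdrawal, so differences of such sizes remain possible. The fit did not pair libraries by number. The median log2 difference of the members was 0.05 in TTX and 0.00 after withdrawal, beside -0.01 and -0.02 over all genes tested. The authors' deposited table calls no member in either knockdown comparison, while it calls 0.336% of genes higher and 1.83% lower in TTX and 1.61% higher and 5.97% lower after withdrawal.

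After TTX withdrawal, limma called Git1 lower in knockdown neurons only and Arhgef7 in control neurons only, though both genes fell in both. The log2 difference of Git1 was -0.97 in knockdown and -0.73 in control neurons, and that of Arhgef7 was -0.62 and -0.99. The difference between the withdrawal responses was called for neither gene. In control neurons limma called 0 of 9 members higher and 1 lower, Arhgef7, beside 6.61% of genes called higher and 11.1% called lower. In knockdown neurons it called 0 of 9 higher and 1 lower, Git1, beside 4.95% of genes called higher and 9.22% called lower. Shares of 1 in 9 are near these backgrounds. In each of these comparisons 4 of 9 members had an unadjusted p below 0.05, as did 3334 of 10689 genes in knockdown and 3688 in control neurons, so this share too is near the background. The median log2 difference of the members was -0.28 in knockdown and -0.16 in control neurons, beside 0.00 and -0.01 over all genes tested. The knockdown comparisons and the withdrawal comparisons share groups with each other and are not independent.

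**Figure D2:**
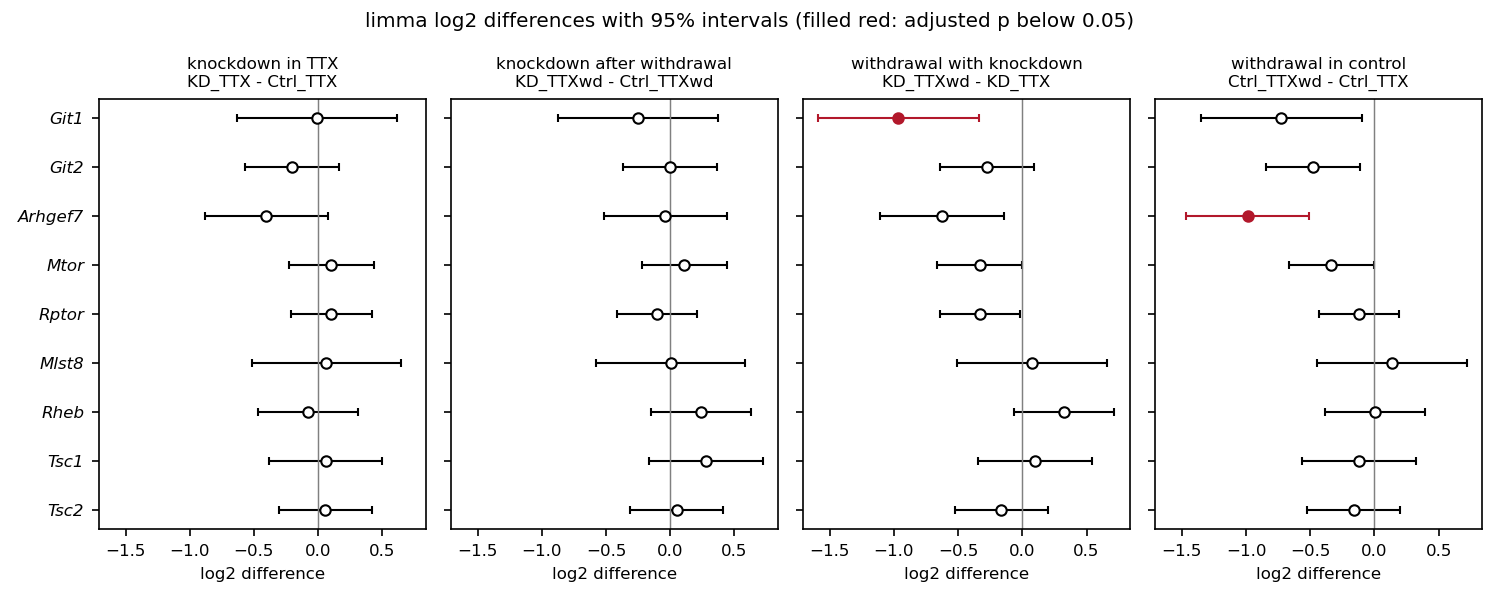
limma log2 difference of each member (points) with its 95% interval (lines) in 4 comparisons, the horizontal axes in log2 units of FPKM + 1. Filled red points passed an adjusted p of 0.05: Git1 for withdrawal with knockdown (-0.97) and Arhgef7 for withdrawal in control (-0.99), and no member for knockdown.

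Git1 encodes a GTPase-activating protein for Arf proteins that acts as a scaffold. It stood at 27.1, 46.9 and 41.8 FPKM in KD_TTXwd, 53.2, 57.3 and 29.7 FPKM in Ctrl_TTXwd, 71.1, 77.7 and 74.7 FPKM in KD_TTX and 53.7, 88.7 and 88.2 FPKM in Ctrl_TTX. In knockdown neurons every library after withdrawal was below every library in TTX, and in control neurons the groups overlapped through the low Ctrl_TTX replicate 1. The means were 38.6 ± 10.3 FPKM in KD_TTXwd and 74.5 ± 3.31 FPKM in KD_TTX, against 46.7 ± 14.9 FPKM in Ctrl_TTXwd and 76.9 ± 20.1 FPKM in Ctrl_TTX (SD, n = 3 each). Git1 fell with withdrawal in knockdown neurons, with a log2 difference of -0.97 ± 0.29 (SE), a 95% interval of -1.59 to -0.34 and a limma adjusted p of 0.0444. In control neurons the log2 difference was -0.73 ± 0.29 (limma adjusted p = 0.0983), and the difference between the withdrawal responses, -0.24 with a 95% interval of -1.13 to 0.64, did not pass (limma adjusted p = 0.811). The authors' deposited table calls Git1 lower after withdrawal in knockdown neurons (log2 fold change -0.95, q = 0.00102) and in control neurons (-0.72, q = 0.0220); by the same rule it calls 13.6% and 13.9% of genes lower and 5.41% and 9.03% higher.

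The Git1 call in knockdown neurons was near the threshold: it held in 12 of 21 other settings. It was lost without replicate 1, 2 or 3 of KD_TTXwd, without replicate 1, 2 or 3 of KD_TTX, and without Ctrl_TTXwd replicate 1, Ctrl_TTX replicate 2 or Ctrl_TTX replicate 3 (limma adjusted p 0.0542 to 0.184). Without KD_TTXwd replicate 1, the lowest library, the log2 difference was -0.74. With that library left out, 77 of 10689 genes were called higher and 262 lower, against 529 and 985 in the fit reported. In control neurons, leaving out Ctrl_TTX replicate 1 gave -0.96 (limma adjusted p = 0.0411) and leaving out the library labelled Ctrl_TTXwd replicate 3 gave -0.43 (limma adjusted p = 0.311). The order of the Git1 means was KD_TTXwd, Ctrl_TTXwd, KD_TTX and Ctrl_TTX from low to high, and neither the first pair nor the last pair of neighbours differed by more than the spread of its libraries.

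Git2, the paralog of Git1 with a like domain structure, varied less. It stood at 23.5, 21.8 and 26.5 FPKM in KD_TTXwd, 23.6, 21.9 and 26.6 FPKM in Ctrl_TTXwd, 32.9, 29.6 and 25.4 FPKM in KD_TTX and 41.6, 31.0 and 29.8 FPKM in Ctrl_TTX. The withdrawal groups held nearly the same values in knockdown and control, and control libraries in TTX were all above those after withdrawal. The log2 difference with withdrawal was -0.28 ± 0.17 (SE) in knockdown neurons (limma adjusted p = 0.289) and -0.48 ± 0.17 in control neurons (limma adjusted p = 0.0676).

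Arhgef7 encodes beta-PIX, the exchange factor for Rac and Cdc42 that binds GIT proteins. It stood at 70.5, 81.6 and 69.6 FPKM in KD_TTXwd, 79.4, 98.6 and 55.4 FPKM in Ctrl_TTXwd, 124.6, 111.5 and 107 FPKM in KD_TTX and 194.9, 128.9 and 137.5 FPKM in Ctrl_TTX. Every library after withdrawal lay below every library in TTX, in knockdown and in control neurons alike. The means were 73.9 ± 6.70 FPKM in KD_TTXwd and 114 ± 9.18 FPKM in KD_TTX, against 77.8 ± 21.7 FPKM in Ctrl_TTXwd and 154 ± 35.9 FPKM in Ctrl_TTX (SD, n = 3 each). In control neurons Arhgef7 fell to 0.504 of its level in TTX on the fitted scale, a log2 difference of -0.99 ± 0.22 (SE) with a 95% interval of -1.47 to -0.51 and a limma adjusted p of 0.0137. With knockdown the log2 difference was -0.62 ± 0.22 with a limma adjusted p of 0.0787, and the difference between the responses, 0.36 with a 95% interval of -0.32 to 1.04, did not pass (limma adjusted p = 0.637).

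The authors' deposited table calls Arhgef7 lower after withdrawal in control neurons (log2 fold change -0.98, q = 0.00562) and not in knockdown neurons (-0.63, q = 0.0929). The control call held in 20 of 21 other settings. The log2 difference was -0.77 (limma adjusted p = 0.041) when the library labelled Ctrl_TTXwd replicate 3 was left out. The call was lost (limma adjusted p = 0.107) in a fit of only the 6 libraries compared. That fit called 1 of 10689 genes higher and 0 lower. In TTX, the knockdown libraries of Arhgef7 all lay below the control libraries, with a log2 difference of -0.40 and a limma adjusted p of 0.936; 7.91% of genes had knockdown libraries all below the control libraries in that comparison and 3.94% had them all above.

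Marker levels moved between the same groups. The pan-neuronal sum was below that in TTX in every library after withdrawal, but in knockdown neurons this rested on Tubb3, which stood at 138, 337 and 148 FPKM in KD_TTXwd and 617, 685 and 868 FPKM in KD_TTX. Without Tubb3, a gene singled out after its values were seen, the sum of the other 6 markers was 576 to 753 FPKM in KD_TTXwd and 632 to 999 in KD_TTX, which overlap, against 340.3 to 832 in Ctrl_TTXwd and 843 to 2290.1 in Ctrl_TTX. The 2290.1 was Ctrl_TTX replicate 1 alone, and replicates 2 and 3 of that group held 843 and 899.5 FPKM. Snap25, also singled out after its values were seen, stood at 282, 255 and 233 FPKM in KD_TTXwd and 238, 197 and 197 FPKM in KD_TTX. Other markers of this list did fall: Rbfox3, Syn1 and Nefl were lower in every KD_TTXwd library than in every KD_TTX library. Rbfox3 stood at 14.9, 26.0 and 17.1 FPKM in KD_TTXwd and 72.4, 50.0 and 46.1 FPKM in KD_TTX. Map2, Syt1 and Snap25 overlapped between these groups. The 7 glutamatergic markers summed to 309 to 434 FPKM in KD_TTXwd and 517 to 643 in KD_TTX, against 128 to 543 in Ctrl_TTXwd and 754 to 791 in Ctrl_TTX. The sum of the 6 GABAergic markers ran the other way with knockdown, at 124 to 192 FPKM in KD_TTXwd and 107 to 123 in KD_TTX. It overlapped in control at 85.9 to 264 FPKM in Ctrl_TTXwd and 84.6 to 166 in Ctrl_TTX. The single GABAergic markers were split with knockdown. Gad1 and Gad2 were higher in every KD_TTXwd library than in every KD_TTX library, Dlx2, Lhx6 and Slc32a1 were lower, and Sst overlapped. The 4 of 7 oligodendrocyte markers with a value summed to 16.1 to 72.4 FPKM over the 12 libraries, and the 5 of 7 vascular and fibroblast markers to 16.8 to 48.8 FPKM. The part of these markers in the Git1 and Arhgef7 results was not tested, and fewer cells of a type and less RNA per cell cannot be told apart in such bulk samples.

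**Figure D3:**
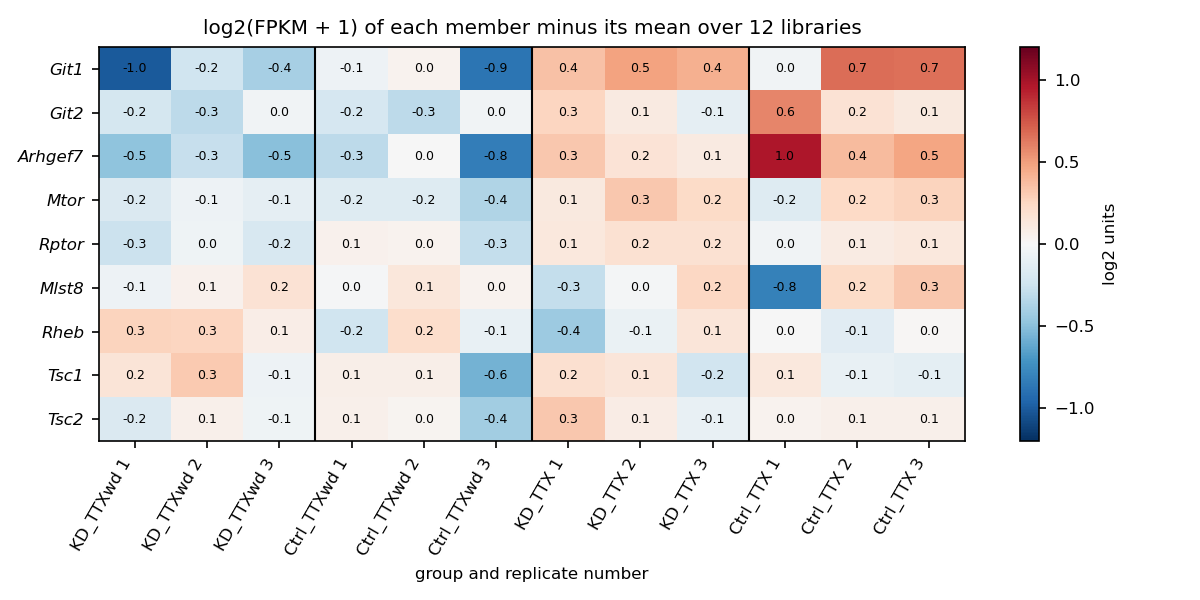
Each member's log2(FPKM + 1) minus its own mean over the 12 libraries (colour and printed value), with members in rows and libraries in columns by group and replicate number. Git1 and Arhgef7 carry the widest range; Ctrl_TTX replicate 1 stands out for high Arhgef7 and low Mlst8, and Ctrl_TTXwd replicate 3 for low Git1, Arhgef7 and Tsc1.

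Mtor, the kinase subunit, stood at 16.9, 18.4 and 17.8 FPKM in KD_TTXwd, 17.2, 17.1 and 14.7 FPKM in Ctrl_TTXwd, 20.8, 24.2 and 22.6 FPKM in KD_TTX and 17.1, 22.7 and 23.3 FPKM in Ctrl_TTX. The knockdown libraries after withdrawal were all below those in TTX, and in control neurons Ctrl_TTX replicate 1 overlapped the withdrawal group. The log2 difference with withdrawal was -0.33 ± 0.15 (SE) in knockdown neurons (limma adjusted p = 0.159) and -0.34 ± 0.15 in control neurons (limma adjusted p = 0.138), and neither passed. Without Ctrl_TTX replicate 1 the control value was -0.47 (limma adjusted p = 0.0295), the only 1 of 21 other settings with a call. At the other end, a trend on locus span gave -0.12 (limma adjusted p = 0.673).

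Rptor encodes raptor, the subunit that recruits the substrates of mTORC1. It stood at 11.9, 13.8 and 12.5 FPKM in KD_TTXwd, 14.9, 14.8 and 11.6 FPKM in Ctrl_TTXwd, 15.8, 16.4 and 16.5 FPKM in KD_TTX and 13.9, 15.5 and 15.8 FPKM in Ctrl_TTX. Withdrawal libraries lay below TTX libraries in knockdown neurons and overlapped them in control neurons. The log2 difference with withdrawal was -0.33 ± 0.14 (SE) with knockdown (limma adjusted p = 0.142) and -0.12 ± 0.14 in control (limma adjusted p = 0.573). In TTX all knockdown libraries were above all control libraries, with a log2 difference of 0.10 (limma adjusted p = 0.947). The groups nearly touched, at 15.774 FPKM in the lowest KD_TTX library and 15.772 FPKM in the highest Ctrl_TTX library. In that comparison 3.94% of genes had knockdown libraries all above the control libraries.

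With withdrawal in knockdown neurons, Git1, Arhgef7, Mtor and Rptor thus had groups that did not overlap, all lower, in a comparison where 23.8% of genes had lower and 20.2% higher groups without overlap. In control neurons this held for Git2 and Arhgef7, where 19.6% of genes had lower and 16.1% higher groups without overlap. With knockdown after withdrawal the groups of all 9 members overlapped, while 9.03% of genes had lower and 10.8% higher groups without overlap.

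Mlst8 encodes the small WD-repeat subunit found in the complexes of both raptor and rictor. It stood at 10.5, 11.5 and 12.6 FPKM in KD_TTXwd, 10.9, 12.2 and 11.4 FPKM in Ctrl_TTXwd, 8.91, 10.8 and 13.3 FPKM in KD_TTX and 5.88, 13.1 and 14.04 FPKM in Ctrl_TTX. The group means lay between 11.0 and 11.5 FPKM, and Ctrl_TTX replicate 1 was the lowest library. The log2 difference with withdrawal was 0.08 with knockdown (95% interval -0.51 to 0.66, limma adjusted p = 0.883) and 0.14 in control (95% interval -0.44 to 0.72, limma adjusted p = 0.743).

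Rheb, the GTPase that activates mTORC1, stood at 172, 171 and 151 FPKM in KD_TTXwd, 121, 165 and 134 FPKM in Ctrl_TTXwd, 106, 135 and 158 FPKM in KD_TTX and 142, 129.6 and 144 FPKM in Ctrl_TTX. KD_TTXwd had the highest mean, 165 ± 12.0 FPKM (SD, n = 3), but its libraries overlapped those of Ctrl_TTXwd and KD_TTX. The log2 difference with withdrawal was 0.32 in knockdown neurons (95% interval -0.07 to 0.71, limma adjusted p = 0.243) and 0.00 in control neurons (95% interval -0.39 to 0.39, limma adjusted p = 0.989). With knockdown after withdrawal it was 0.24 (95% interval -0.15 to 0.63, limma adjusted p = 0.592).

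Tsc1 encodes hamartin, which stabilises the TSC complex. It stood at 24.9, 28.0 and 21.3 FPKM in KD_TTXwd, 23.4, 23.4 and 14.7 FPKM in Ctrl_TTXwd, 25.5, 24.7 and 18.9 FPKM in KD_TTX and 24.4, 20.96 and 20.5 FPKM in Ctrl_TTX. Tsc2 encodes tuberin, the part of the complex that acts on Rheb. It stood at 20.9, 24.6 and 22.7 FPKM in KD_TTXwd, 24.7, 24.2 and 17.5 FPKM in Ctrl_TTXwd, 29.7, 25.2 and 22.1 FPKM in KD_TTX and 24.3, 24.6 and 24.7 FPKM in Ctrl_TTX. Groups overlapped in every comparison for both genes, and Ctrl_TTXwd replicate 3 was the lowest library of each. The largest log2 difference of Tsc1 was 0.28 with knockdown after withdrawal (95% interval -0.17 to 0.72, limma adjusted p = 0.584), and it was 0.07 without the library labelled Ctrl_TTXwd replicate 3. For Tsc2 the withdrawal differences were -0.16 in knockdown neurons and -0.16 in control neurons (limma adjusted p 0.540 and 0.518).

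The difference between the withdrawal responses of knockdown and control neurons was not called for any member. limma called 0 of 9 in that contrast and 0% of all genes in either direction, with 0 members and 1050 genes at an unadjusted p below 0.05. The values of the members lay between -0.24 and 0.36 on the log2 scale, and their 95% intervals reached from -1.13 to 1.04.

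Ratios of paired members within a library compare partners with each other. They were tested by exact permutation of libraries within knockdown and control (400 arrangements, two-sided, smallest p 0.005), with Benjamini-Hochberg adjustment over the 6 tests made; the pair of Rptor and Rictor was not used here. Mlst8 over Mtor was 0.624, 0.627 and 0.708 in KD_TTXwd and 0.636, 0.715 and 0.772 in Ctrl_TTXwd, against 0.428, 0.448 and 0.588 in KD_TTX and 0.344, 0.578 and 0.602 in Ctrl_TTX. All 6 withdrawal libraries lay above all 6 TTX libraries. The log2 ratio was higher by 0.44 after withdrawal, with an exact permutation p of 0.005, the smallest possible, and an adjusted p of 0.03. The ratio shows unequal change of the pair, and neither gene was called alone. The Mlst8 locus spans 5753 bases and that of Mtor 110151, and the ratio was not run with a trend on locus span. When 1 library was left out the difference was 0.33 to 0.51, and the adjusted exact permutation p was 0.06 to 0.15 without Ctrl_TTX replicate 1 or any 1 of the 6 withdrawal libraries. With knockdown the log2 ratio differed by -0.07 (exact permutation p = 0.59, adjusted p = 0.708).

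Git1 over Git2 had a median of 1.86 (range 1.12 to 2.62) in the 6 withdrawal libraries and 2.74 (range 1.29 to 2.96) in the 6 TTX libraries, a log2 difference of -0.47 (exact permutation p = 0.14, adjusted p = 0.28). The same ratio differed by -0.02 with knockdown (exact permutation p = 0.93, adjusted p = 0.93). Tsc1 over Tsc2 had a median of 0.9598 after withdrawal and 0.855 in TTX, a log2 difference of 0.15 (exact permutation p = 0.11, adjusted p = 0.28). With knockdown it differed by 0.12 (exact permutation p = 0.225, adjusted p = 0.338). None of these passed.

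**Figure D4:**
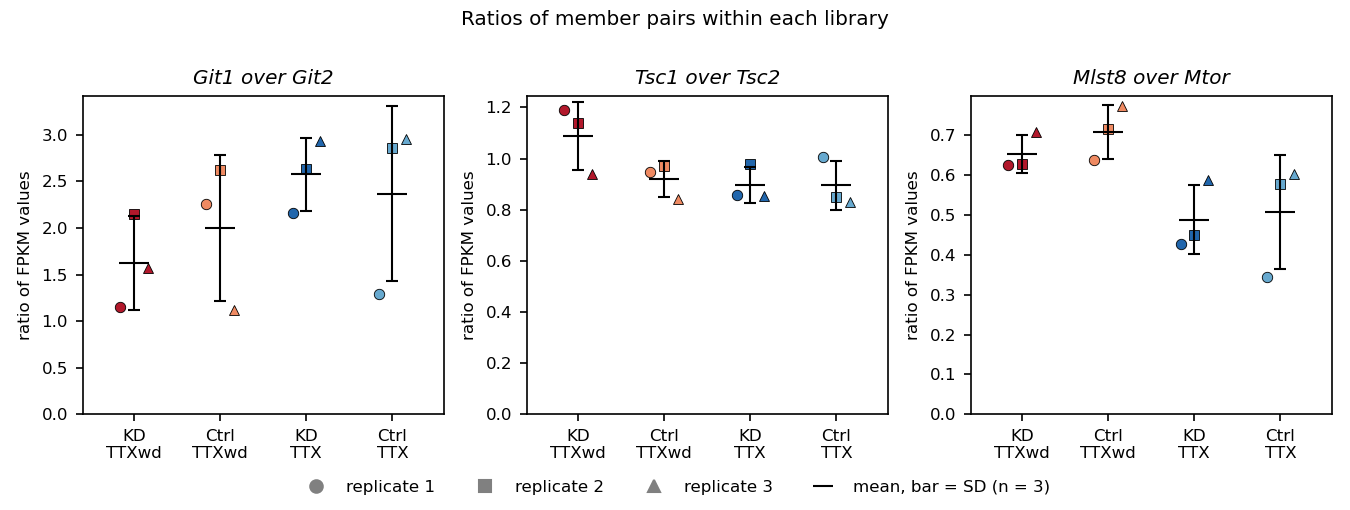
Ratio of FPKM values of a pair of members within each library (vertical axes, from 0) by group (horizontal axes), with points for libraries and the mean with its SD (n = 3). All 6 withdrawal libraries exceed all 6 TTX libraries for Mlst8 over Mtor (0.624 to 0.772 against 0.344 to 0.602), and the other ratios overlap.

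Other genes of the pathways were taken from lists and read beside the members. With knockdown, in TTX or after withdrawal, and in the difference of the withdrawal responses, limma called 0 genes in every list. Partners of GIT and PIX were 18 of 20 tested. In knockdown neurons 0 were higher and 3 lower after withdrawal, the liprins Ppfia3 (14.1 ± 3.27 FPKM in KD_TTXwd, 35.2 ± 2.13 in KD_TTX; log2 difference -1.28) and Ppfia4 (7.37 ± 0.53 and 14.8 ± 2.57 FPKM; -0.90) and the polarity scaffold Scrib (10.8 ± 2.94 and 23.3 ± 1.24 FPKM; -1.07). In control neurons 0 were higher and 3 lower, Ppfia3 (13.9 ± 5.23 FPKM in Ctrl_TTXwd, 37.4 ± 4.63 in Ctrl_TTX; -1.43), the presynaptic scaffold Pclo (8.06 ± 2.41 and 24.3 ± 13.3 FPKM; -1.40) and the kinase Pak3 (47.2 ± 12.6 and 107.9 ± 43.4 FPKM; -1.14). The list's median log2 difference was -0.22 in knockdown and -0.36 in control neurons, and its 3 lower genes of 18 stand beside 9.22% and 11.1% of all genes called lower.

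Upstream of mTORC1, 12 genes of the PI3K to AKT arm were tested. In knockdown neurons 0 were higher and 1 lower after withdrawal, the kinase Akt1 (64.4 ± 15.2 FPKM in KD_TTXwd, 124.9 ± 6.45 in KD_TTX; log2 difference -0.97, limma adjusted p = 0.0383). In control neurons 0 were higher and 1 lower, the AKT-activating kinase Pdpk1 (19.4 ± 2.48 FPKM in Ctrl_TTXwd, 38.3 ± 3.18 in Ctrl_TTX; -0.95, limma adjusted p = 0.00456). At 1 of 12 lower in each comparison, these counts are no higher than the 9.22% and 11.1% of all genes called lower. The median of these genes was -0.17 in knockdown and -0.35 in control neurons.

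The lysosomal nutrient arm, which brings mTORC1 to the lysosome where Rheb acts, had 18 of 23 genes tested. In each withdrawal comparison 13 of these were not called. In knockdown neurons 3 were higher and 2 lower after withdrawal, among them the Ragulator subunit Lamtor5 (95.1 ± 8.35 FPKM in KD_TTXwd, 50.3 ± 14.4 in KD_TTX; log2 difference 0.94), the KICSTOR subunit Kptn (5.80 ± 1.14 and 15.3 ± 2.75 FPKM; -1.26) and the GATOR subunit Wdr24 (9.799 ± 1.29 and 16.8 ± 1.47 FPKM; -0.72). In control neurons 4 were higher and 1 lower, among them Lamtor5 (105 ± 15.7 FPKM in Ctrl_TTXwd, 36.9 ± 13.1 in Ctrl_TTX; 1.54) and 2 further Ragulator subunits, Lamtor1 (10.7 ± 1.22 and 3.86 ± 2.05 FPKM; 1.37) and Lamtor4 (98.6 ± 9.51 and 46.4 ± 18.3 FPKM; 1.15). These counts stand beside 4.95% of all genes called higher and 9.22% lower in knockdown neurons, and 6.61% higher and 11.1% lower in control neurons. The list's median was 0.17 in knockdown and 0.37 in control neurons. Their limma adjusted p lay between 0.00594 and 0.0412. The calls of the scaffold partners, PI3K to AKT and lysosomal genes named here held in 13 to 20 of 21 other settings each, and the part of the marker sums in them was not tested.

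Among the other genes of the mTOR, TSC and Rheb complexes, 8 of 10 were tested. In knockdown neurons 0 were called, and in control neurons 1 was higher, Prr5l, which binds the mTOR complex of rictor (5.29 ± 0.78 FPKM in Ctrl_TTXwd, 3.16 ± 0.41 in Ctrl_TTX; log2 difference 0.60, limma adjusted p = 0.0438); this call held in 9 of 20 other settings. Outputs of mTORC1, such as the S6 kinase and eIF4E-binding protein genes, were 10 of 13 tested. limma called 0 of them in either withdrawal comparison, with medians of -0.28 in knockdown and -0.10 in control neurons.

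**Figure D5:**
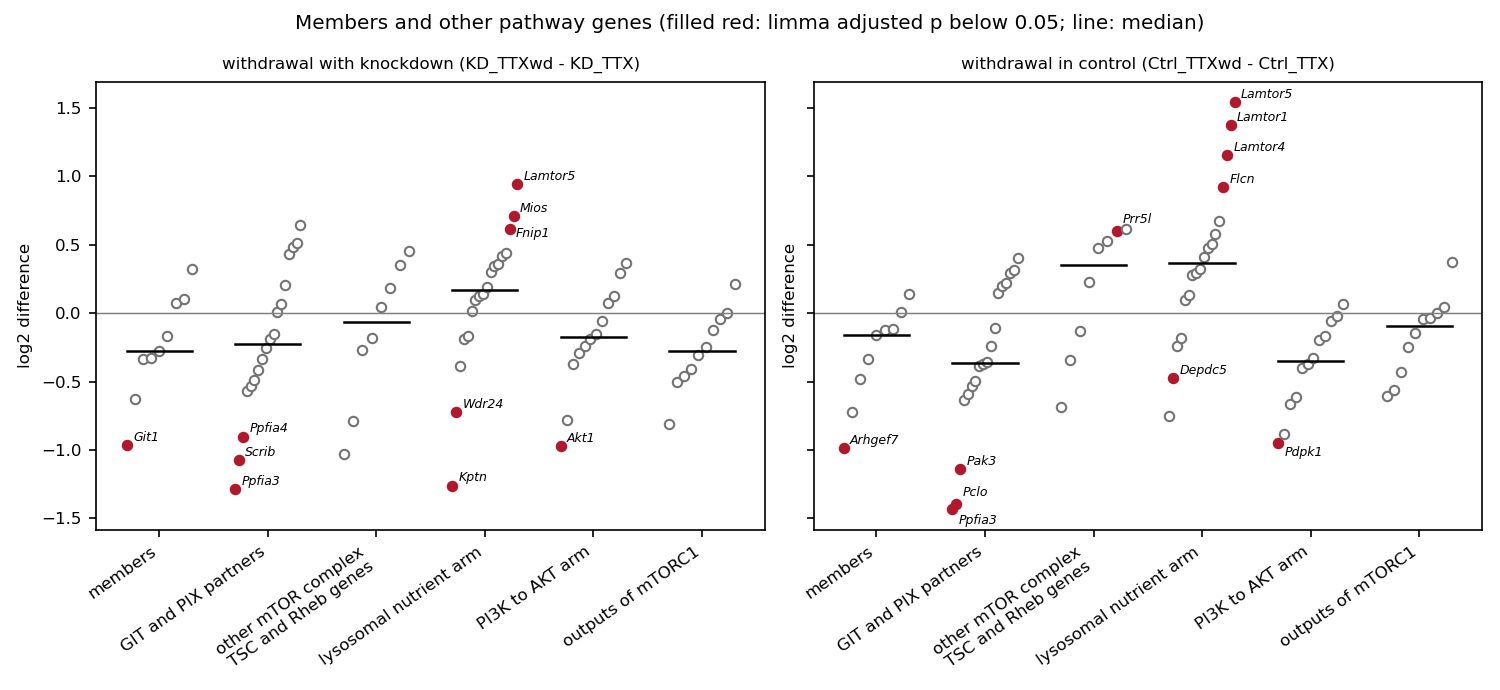
limma log2 difference with withdrawal (vertical axis) of the 9 members and of the genes in 5 pathway lists (horizontal axis), in knockdown neurons (left) and control neurons (right); each point is a gene, filled red where the adjusted p was below 0.05, and the line is the median. The lysosomal list has medians above 0 (0.17 and 0.37), and the GIT and PIX partners below 0 (-0.22 and -0.36).

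The genes whose pattern was most like that of Git1 and Mtor were sought among 9026 genes with a mean of at least 5 FPKM, by the root mean square difference of log2(FPKM + 1) over the 12 libraries after centring each gene on its mean. For Git1, which itself varied with a root mean square of 0.53 around its mean, the nearest were Gramd1a (0.097), Akt1 (0.101) and Cic (0.115). The nearest member was Mtor at rank 1031 (0.367), ahead of its binding partner Arhgef7 at rank 1101 (0.377). The measure is not scaled by how much a gene varies, and a gene that did not vary would lie at 0.53 from Git1. These ranks thus do not show which member followed Git1 more closely. For Mtor, which varied by 0.21, the nearest were Ubr4 (0.063), Slmo1 (0.089) and Rabl6 (0.091). Rptor was the nearest member to Mtor, at rank 18 with 0.12, followed by Tsc2 at rank 265. The libraries are shared by all these genes, so this likeness describes these 12 libraries.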

How the data were processed

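RNA was measured in 12 libraries. Per the submitters' processing notes, the genome build was rn5 and the tools were Trimmomatic, TopHat2, Cufflinks and also Cuffdiff; their versions and the annotation are not given in the sources used here. The library values are FPKM deposited by the authors, per the file headers, and how they were scaled is not stated, so the depth in reads is unknown. Fold changes of the authors are given on the log2 scale in the deposited table, and their significance as Cuffdiff's q-value, called here below 0.05. The control columns are headed scr, and the labels describe the control as an empty vector. Of 10730 genes, 1 was left out because its library values did not match the authors' group value within 1%. No gene is below 1.00 FPKM in Ctrl_TTX replicate 1 while 11 libraries go below 0.05, so the list of genes may have been picked by that library.

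limma 3.58.1 in R 4.3.3 (lmFit, contrasts.fit, eBayes with trend) modelled log2(FPKM + 1) by group, with 8 residual degrees of freedom and 5 contrasts. Of the genes kept, 10689 were tested and 40 were not. Each test was two-sided and adjusted by Benjamini-Hochberg over these genes; log2 differences are on the log2(FPKM + 1) scale, which understates changes of low genes. The code was tested on simulated data. Ratios and figures used Python 3.11.15, pandas 2.3.3, numpy 2.4.6 and matplotlib 3.10.9. Promoters came from RefSeq, GRCr8, matched by symbol for 9 of 10 members.

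The members and lists were chosen with earlier results of these data known. Named were all members, Grin3a, up to 3 called genes per list and contrast by size of change, and the 3 genes most like Git1 and Mtor; 1 listed gene is not reported here. Same-numbered libraries of KD_TTX and Ctrl_TTX deviated together from their group means (correlations across genes 0.617, 0.436 and 0.667), so the numbers may pair them. The fit reported, with its p-values and intervals, did not pair libraries in that comparison. With the number as a block shared by all 12 libraries, limma called 0 members there. That block does not pair KD_TTX with Ctrl_TTX alone, and a limma fit paired within those 6 libraries was not run. Alternatives were another pseudocount, filters, scalings, a robust variance model, a trend on locus span, the block, the 6 libraries compared alone and leaving out each library.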

Additional observations from a re-analysis of the deposited data

How the results depend on the processing

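With knockdown, in TTX or after withdrawal, and in the difference of the withdrawal responses, 0 members were called by limma under each of the alternatives run. The count for withdrawal in control, 1, was 0 in a fit of only the 6 libraries compared, 2 with a trend on locus span (Arhgef7, and Git1 at -0.82, limma adjusted p = 0.0403) and 1 to 3 when leaving out 1 library, with 3 without Ctrl_TTX replicate 1 (Arhgef7, Git1 and Mtor). The count for withdrawal with knockdown, 1, was 2 with only the 6 libraries compared and 0 to 2 when leaving out 1 library: 2 without Ctrl_TTX replicate 1 or Ctrl_TTXwd replicate 3, 1 without Ctrl_TTXwd replicate 2 and 0 without any of the other 9. In those cases with 2 calls, the second was Arhgef7. Calls over all 10689 genes moved as well. For withdrawal in control, 707 genes were called higher and 1189 lower in the fit reported. With only the 6 libraries compared, 1 was higher and 0 lower. The trend on locus span gave 833 and 1078, and leaving out Ctrl_TTX replicate 1 gave 705 and 1285. For withdrawal with knockdown, 529 and 985 became 910 and 1591 with only the 6 libraries compared. Without KD_TTXwd replicate 1 they became 77 and 262. The replicate number as a block changed no call of a member in any contrast; outside knockdown in TTX at least 1 same-numbered pair correlated below 0.1 (lowest -0.497). For the Mlst8 to Mtor ratio, pairing the libraries by number gave the same log2 difference of 0.44 with an adjusted p of 0.188, the smallest that 64 sign flips allow after adjustment, and leaving out 1 library gave 0.33 to 0.51, with adjusted p of 0.03 to 0.15. Of the other values, 65 lost and 6 gained their call under an alternative and 1179 did neither; no called value changed sign. Quantile normalization called 953 genes higher and 932 lower for withdrawal with knockdown, against 529 and 985 in the fit reported. No scaling moved the median of all genes by more than 0.0820 on the log2 scale. With 3 libraries a group and an unknown number of reads, the intervals printed in the report bound the size of each difference. The ratio of Rptor to Rictor could not be run.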
